A study of Mus musculus with 10 samples.

Results

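The genes described here encode the nuclear subunits of oxidative phosphorylation (OXPHOS). They were chosen by gene symbol alone, as the Nduf genes of complex I, Sdha to Sdhd of complex II, the Uqcr genes of complex III, the Cox4 to Cox8 genes of complex IV and the Atp5 genes of complex V. This rule took 85 of the 22373 genes in the table, of which 38 carry complex I symbols, 4 complex II, 8 complex III, 18 complex IV and 17 complex V. Ndufa4 and Ndufa4l2 were kept with complex I by symbol, although the Ndufa4 protein is known as a complex IV subunit. Atp5s, which encodes a coupling factor of the ATP synthase, was taken by its symbol too. At least 32 footprints in a stage were found for 81 genes, and Cox6a2, Cox7b2, Cox8b and Cox8c fell short of this minimum.

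OXPHOS couples the oxidation of NADH and succinate to ATP synthesis in the inner mitochondrial membrane. Complexes I and II pass electrons to ubiquinone, complex III passes them to cytochrome c, complex IV reduces oxygen, and complex V, the ATP synthase, uses the proton gradient that complexes I, III and IV build. Most subunits are made by cytosolic ribosomes and imported, a few are made inside the mitochondrion, and several subunits of complexes IV and V come in paralogous forms, some of which are typical of muscle, lung or testis.

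Ribosome-protected mRNA fragments (footprints) were sequenced (Ribo-seq) from neocortex of wild-type CD-1 mouse embryos at E12.5, E14, E15.5 and E17 and of pups at P0, the day of birth. Embryonic stages are days after timed mating, no group was treated, and each of the 2 libraries per stage came from a pool of brains of both sexes. Library totals ran from 7544404 counts (P0 replicate 1) to 36129988. A footprint count reflects the level of an mRNA together with its occupancy by ribosomes, and in bulk tissue fewer cells of a type and less RNA per cell cannot be told apart.

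The P0 libraries stood apart from each other. Between replicates, the log2 ratio of well-covered OXPHOS genes had an SD of 0.41 at P0 and between 0.079 and 0.18 at the other stages. Fold changes of called OXPHOS genes that rest on P0 are therefore given without each P0 library, too. The 8 dorsal cortex markers summed to between 688 and 1032 CPM (counts scaled to a common library size, with TMM factors) in every library. Markers of other tissue changed with stage. Red blood cell genes fell from 11214 and 11607 CPM (E12.5) to 1862 and 1439 (P0), and the 8 choroid plexus markers stood at 344 and 284 CPM (E12.5), 1154 and 1160 (E14) and at or under 14.5 in every later library. Pericyte markers summed to between 46.0 and 93.4 CPM, striated muscle markers, most of whose sum was Acta1, to between 166 and 232, and sperm lineage markers to at most 0.265. The part of these cells in the results below was not tested.

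Promoters are shown for the paralogue sets in which a member changed, cytochrome c oxidase subunit 6B and the ATP synthase c subunit, because such paralogues encode like proteins from separately regulated genes. Each window is RefSeq sequence of build GRCm38.p6, 250 bases before and 50 bases after the start that the promoter table uses, 5′ to 3′ on the gene's strand. For Atp5g1 and Atp5g3 this start lies inside the annotated span of the gene, so windows at starts farther upstream are not shown. Capitals mark matches on either strand to GCGCA and GCGC with any base between them, a motif of the transcription factor NRF1, or CCGGAAG, a core motif of ETS factors such as GABP.
Cox6b1, chr7:30626065-30626364, minus strand: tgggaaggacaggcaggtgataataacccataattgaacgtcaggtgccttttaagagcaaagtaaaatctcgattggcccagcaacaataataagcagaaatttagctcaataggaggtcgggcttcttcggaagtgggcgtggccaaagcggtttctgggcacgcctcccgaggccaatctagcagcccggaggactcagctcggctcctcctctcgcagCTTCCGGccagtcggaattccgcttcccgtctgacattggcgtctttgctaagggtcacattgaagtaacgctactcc
Cox6b2, chr7:4753045-4753344, minus strand: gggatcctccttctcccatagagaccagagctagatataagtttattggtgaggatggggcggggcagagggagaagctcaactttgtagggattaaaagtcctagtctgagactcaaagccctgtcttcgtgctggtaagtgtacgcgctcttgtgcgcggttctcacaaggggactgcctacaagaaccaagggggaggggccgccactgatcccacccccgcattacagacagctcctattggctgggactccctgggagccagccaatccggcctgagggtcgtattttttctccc
Atp5g1, chr11:96075582-96075881, minus strand: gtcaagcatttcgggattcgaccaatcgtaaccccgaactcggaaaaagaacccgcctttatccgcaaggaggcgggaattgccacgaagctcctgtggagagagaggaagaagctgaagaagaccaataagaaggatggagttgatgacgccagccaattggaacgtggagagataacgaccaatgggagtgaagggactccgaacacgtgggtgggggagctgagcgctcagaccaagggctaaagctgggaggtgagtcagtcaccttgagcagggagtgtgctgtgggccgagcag
Atp5g2, chr15:102670998-102671297, minus strand: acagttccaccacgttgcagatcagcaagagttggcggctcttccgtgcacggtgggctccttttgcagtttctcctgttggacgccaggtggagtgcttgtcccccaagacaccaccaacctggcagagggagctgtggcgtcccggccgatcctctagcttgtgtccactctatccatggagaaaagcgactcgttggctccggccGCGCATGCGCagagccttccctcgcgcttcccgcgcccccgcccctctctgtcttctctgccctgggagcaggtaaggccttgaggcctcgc
Atp5g3, chr2:73911277-73911576, minus strand: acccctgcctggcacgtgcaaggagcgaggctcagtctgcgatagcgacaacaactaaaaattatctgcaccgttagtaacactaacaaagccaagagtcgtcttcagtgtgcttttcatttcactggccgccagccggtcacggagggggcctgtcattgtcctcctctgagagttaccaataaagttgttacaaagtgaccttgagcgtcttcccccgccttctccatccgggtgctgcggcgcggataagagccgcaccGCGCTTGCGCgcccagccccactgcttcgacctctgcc

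Cox6b1 held 1 match to the ETS letters and Cox6b2 held none of either motif. Atp5g2 and Atp5g3 each held 1 match to the NRF1 letters, before the start in Atp5g2 and after it in Atp5g3, and Atp5g1 held none. Across the 67 OXPHOS genes with an entry in the promoter table, 17 (25.37%) held the NRF1 letters, against 5.188% of all 27025 genes with an entry. The ETS letters were found in 16 (23.88%) of the OXPHOS genes and in 9.928% of all genes. The set of all genes was not limited to those with footprints and was not matched for base composition. The shares are therefore not read as particular to OXPHOS. The NRF1 letters occurred in 6 of 13 complex V genes and in 1 of 13 complex IV genes. A match is a description of the letters and does not show a bound site.

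Summed footprints on OXPHOS genes held a nearly level course from E12.5 to P0. The sum was 20261 and 19916 CPM (E12.5), 18958 and 20288 (E14), 19093 and 19123 (E15.5), 19954 and 20041 (E17), and 19952 and 20728 (P0). All 10 libraries lay between 18958 and 20728 CPM. This level course depends on the scaling. As a share of all counts, OXPHOS footprints went from 1.72% and 1.61% at E12.5 to 2.43% in both P0 libraries, while genes with histone (Hist) symbols went from 34.0% and 38.5% of the counts to 9.83% and 6.32%. Outside the Hist genes, the OXPHOS share was 2.61% and 2.62% at E12.5 and 2.7% and 2.6% at P0.

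The complexes kept their order and nearly their proportions. Complex I summed to 6630 ± 304 CPM (E12.5), 6410 ± 586 (E14), 6101 ± 47.1 (E15.5), 6724 ± 88.9 (E17) and 6658 ± 309 (P0) (mean ± SD, n = 2, as for all stage values below). Complex II ran from 326 ± 8.60 CPM (E17) to 390 ± 31.7 (P0), with 389 ± 41.6 (E12.5). Complex III lay between 1533 ± 48.4 CPM (E15.5) and 1668 ± 113 (E12.5), complex IV between 4081 ± 21.0 (E15.5) and 4356 ± 46.4 (E17), and complex V between 7003 ± 3.89 (E17) and 7410 ± 53.9 (P0). The complexes differ in the number and length of their genes, so these sums compare stages and not complexes. Complex I made up 33.0% ± 1.12 of the OXPHOS counts at E12.5 and 32.7% ± 0.634 at P0, and complex V 36.3% ± 1.11 and 36.4% ± 0.719. A large part of the complex I sum was Ndufa4, placed there by symbol only. Ndufa4 was at 1961 ± 296 CPM (E12.5), 1672 ± 419 (E14) and 1728 ± 367 (P0).

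**Figure D1:**
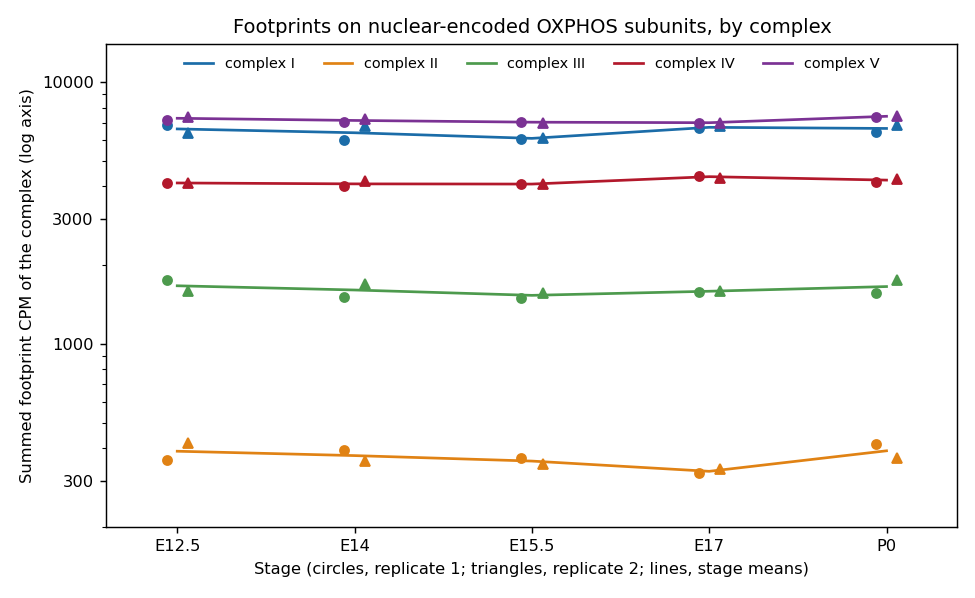
Summed footprint CPM (log axis) of each OXPHOS complex at the 5 stages; circles and triangles are replicates 1 and 2, and lines join stage means. The 5 lines run nearly level, with complex V between 7003 and 7410 CPM and complex II between 326 and 390 CPM.

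Well-covered OXPHOS genes moved over a narrow range. Among the 76 with at least 500 counts on average, the difference between the highest and lowest stage mean had a median of 0.33 on the log2 scale. All 76 stayed under 1, that is, under a doubling. Cox6b2, with 384.6 counts on average, is not among the 76 and moved more widely (-2.60 from E14 to E15.5). Over all 4559 genes with at least 500 counts on average, the median was 0.77, and 64.9% stayed under 1. A narrow range was not particular to OXPHOS. For 56 mitochondrial ribosomal protein genes of at least 500 counts, the median was 0.44, and 98.2% stayed under 1. For 80 cytosolic ribosomal protein genes the median was 0.79. Of the 76, Atp5o (0.070), which encodes the OSCP subunit of the ATP synthase stalk, and Uqcr11 (0.075), a small complex III subunit, had the smallest ranges. Atp5g1 (0.94) had the largest of the 76. P0 was the highest stage for 32 of the 76 genes, E17 for 16 and E12.5 for 14. Peak stages were not counted over all genes, and replicates differed most at P0, so the 32 is not read as particular to OXPHOS. E15.5 was the lowest stage for 21 and E12.5 for 20.

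Each step between stages asks which subunits change while cortical progenitors give way to neurons. A gene was called at a limma-voom adjusted p under 0.05 over all 13484 genes kept with the higher stage at least 25% above the lower. From E12.5 to E14, 0 of 81 OXPHOS genes were called in either direction, where 0.497% of all genes were called higher and 0.141% lower. From E14 to E15.5, when 16.5% of all genes were called higher and 19.6% lower, 0 OXPHOS genes were higher and 3 lower (Cox6b2, Atp5j2 and Ndufb7). From E15.5 to E17, 0 were called, against 5.61% of all genes higher and 3.43% lower. From E17 to P0, 2 were higher (Atp5a1 and Sdhd) and 1 lower (Ndufa2), against 9.46% and 11.1% of all genes. The edgeR and DESeq2 tests also called 0 OXPHOS genes in the steps from E12.5 to E14 and from E15.5 to E17, and an unadjusted p under 0.05 was found for 2 genes in each of these, 8 from E14 to E15.5 and 14 from E17 to P0. The median SE of an OXPHOS fold change was 0.13 on the log2 scale in each comparison. Changes of the size of the threshold are therefore at the edge of what 2 libraries a stage resolve. The fit shares a single estimate of each gene's spread over all stages. Because replicates differed most at P0, these SEs and p-values can be too small where P0 enters and too large in the earlier steps.

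From E12.5 to P0, 8 OXPHOS genes were called higher and 6 lower, where 30.1% of all genes were called higher and 32% lower. The median log2 fold change of the 81 was 0.076, and that of all genes was -0.013. For the single steps the OXPHOS medians were 0.018, -0.050, 0.053 and 0.046. At an average of 500 counts or more, 17.1% of 76 OXPHOS genes and 62.8% of 4559 genes were called from E12.5 to P0, and 2.63% and 36.1% from E14 to E15.5. Scaling by total counts alone, without TMM, moved the median of all genes from -0.013 to 0.51 in the E12.5 to P0 comparison and from -0.0086 to 0.29 in the E14 to E15.5 comparison. It gave 59 OXPHOS genes higher and 1 lower from E12.5 to P0, so that 98.3% of calls were higher in place of 57.1%. From E14 to E15.5 it gave 20 higher and 1 lower (95.2% higher in place of 0%), and from E17 to P0 11 higher and 0 lower (100% in place of 66.7%). Relative to all genes, the OXPHOS median from E12.5 to P0 was 0.089 with TMM and 0.091 with total counts. All directions below are relative to the TMM scale, and with total counts the falls of Ndufa2, Sdha, Atp5g2 and Atp5h from E12.5 to P0 turned into differences of 0.12, 0.040, 0.097 and 0.094.

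Leaving out either P0 library raised the number of OXPHOS genes called from E14 to E15.5, from E17 to P0 and from E12.5 to P0. It also raised the number called over all genes in these comparisons, though barely from E12.5 to P0 without replicate 2. Such a fit leaves 1 library at P0, so these counts are not read as a result about OXPHOS genes. With single libraries left out, the OXPHOS median lay between 0.042 and 0.12 from E17 to P0 and between 0.066 and 0.11 from E12.5 to P0.

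**Figure D2:**
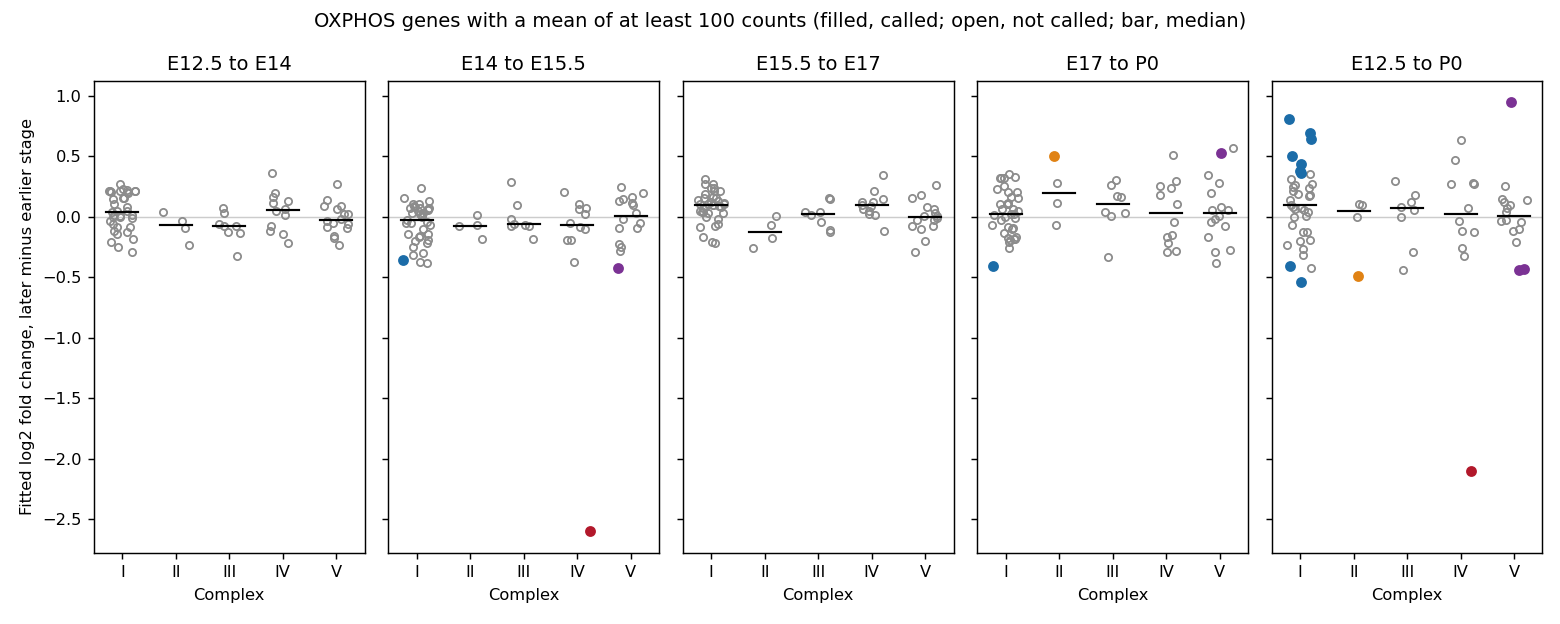
Fitted log2 fold change (later minus earlier stage) of the 77 OXPHOS genes that averaged at least 100 counts, by complex, in the 5 comparisons; filled points are called, open points are not, and bars are medians. Points crowd around 0 in the panels for E12.5 to E14 and E15.5 to E17, where 0 genes were called, and Cox6b2 lies far below the rest for E14 to E15.5 (-2.60) and for E12.5 to P0 (-2.10).

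Of the 38 genes of complex I, NADH dehydrogenase, 7 were called higher and 2 lower from E12.5 to P0, where 30.1% and 32% of all genes were. All 9 were among its 29 supernumerary subunits, which surround the catalytic core. Of its 7 nuclear-encoded core subunits, 0 were called in any comparison. The median log2 fold change from E12.5 to P0 was 0.095 for the supernumerary and 0.17 for the core subunits. A difference between these groups, or between complexes, was not tested. Ndufv3, a small subunit of the NADH-binding module, stood at 98.1 and 102 CPM (E12.5), 126 and 108 (E14), 121 and 112 (E15.5), 145 and 136 (E17), and 219 and 144 (P0). Both P0 libraries were above both E12.5 libraries, and the E17 and P0 libraries overlapped. It rose by 0.81 on the log2 scale from E12.5 to P0 (SE 0.18, limma-voom adjusted p = 0.00446), and by 0.53 without P0 replicate 1 and 1.16 without replicate 2.

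Ndufa8, a subunit of the intermembrane-space face of complex I, was higher at each successive stage, from 49.7 and 51.9 CPM at E12.5 through 58.7 and 58.6, 68.0 and 70.1, and 75.5 and 76.3 to 84.1 and 80.8 at P0. Its stages did not overlap. The rise from E12.5 to P0 was 0.70 on the log2 scale (SE 0.085, limma-voom adjusted p = 0.000166), and 0.67 or 0.76 without either P0 library. No single step of Ndufa8 was called.

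Ndufa11, a membrane-arm subunit, rose by 0.65 from E12.5 to P0 (SE 0.13, limma-voom adjusted p = 0.00265). Its P0 libraries at 119 and 97.4 CPM lay above the 8 embryonic ones, which ran from 63.1 to 90.0. Without P0 replicates 1 and 2 the values were 0.51 and 0.84. The other subunits called higher were Ndufa6 (0.51), Ndufs6 (0.44), Ndufb3 (0.38) and Ndufb2 (0.37). Without P0 replicate 1, Ndufa6 was at 0.32, and Ndufs6 (0.27) and Ndufb3 (0.27) fell under the fold threshold, and without replicate 2 these were at 0.76, 0.67 and 0.54. Ndufb2 was at 0.37 and 0.40 without the P0 libraries in turn. Without E12.5 replicate 1, Ndufb2 was at 0.21 with an adjusted p of 0.14.

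Ndufc2, a membrane-arm subunit, was at 366 and 326 CPM (E12.5), 271 and 342 (E14), 266 and 259 (E15.5), 271 and 266 (E17), and 206 and 274 (P0). E12.5 and E14 overlapped, and every library from E15.5 on lay below both E12.5 libraries. It fell by 0.54 from E12.5 to P0 (SE 0.16, limma-voom adjusted p = 0.0167), a call that was lost without P0 replicate 1 (-0.33, adjusted p = 0.0551), while without replicate 2 the value was -0.71.

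Ndufa2, a small subunit of the matrix arm, was at 97.0 and 104 CPM at E17 and 79.3 and 73.5 at P0, below the 8 embryonic libraries (94.1 to 118). It fell by 0.40 from E17 to P0 (SE 0.10, limma-voom adjusted p = 0.0271) and by 0.41 from E12.5 to P0 (SE 0.10, adjusted p = 0.00795). Without P0 replicate 2 the values were -0.31 in both comparisons, neither of them called, and without replicate 1 they were -0.45 in both. Its annotated span overlaps Tmco6, which leaves its count uncertain. Ndufb7, a supernumerary subunit of the intermembrane-space face, was highest at E14 (88.7 and 82.1 CPM) and lowest at E15.5 (67.3 and 65.7). It fell by 0.36 in that step (SE 0.086, limma-voom adjusted p = 0.0124), and at P0 it was at 77.0 and 75.8 CPM.

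The 7 core subunits carry the flavin and the iron-sulphur clusters that lead electrons to ubiquinone, and their median from E12.5 to P0 was 0.17. Ndufs1, the largest, had 44.0 and 37.1 CPM at E12.5 and 32.5 and 50.2 at P0. Ndufv1, which binds NADH and flavin, had 141 ± 1.94 and 159 ± 28.5, and Ndufv2 had 152 ± 1.36 and 133 ± 18.2. Ndufs3 and Ndufs7 were at 51.5 ± 5.74 and 67.8 ± 12.6 CPM at E12.5 and at 62.2 ± 6.79 and 87.8 ± 15.0 at P0, and Ndufs8 had 38.2 and 45.0 CPM and then 60.3 and 43.3. The changes of these named genes were within 0.36 on the log2 scale and did not pass the test.

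Complex II, succinate dehydrogenase, also works in the tricarboxylic acid cycle and is wholly nuclear-encoded. Sdha, the flavoprotein that oxidises succinate, was at 36.1 and 36.9 CPM (E12.5), 34.7 and 34.0 (E14), 32.1 and 33.1 (E15.5), 26.5 and 28.0 (E17), and 22.1 and 29.3 (P0). Every stage from E12.5 to E17 lay below the one before it, and P0 overlapped E17. It fell by 0.49 from E12.5 to P0 (SE 0.13, limma-voom adjusted p = 0.0113). Without P0 replicate 1 the value was -0.31, under the fold threshold, and without replicate 2 it was -0.69.

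Sdhd, which anchors the complex in the membrane and helps to bind ubiquinone, went from 61.0 and 70.3 CPM (E12.5) to 50.6 and 47.8 (E15.5) and 51.0 and 48.1 (E17), and stood at 83.0 and 60.9 (P0). It rose by 0.50 from E17 to P0 (SE 0.15, limma-voom adjusted p = 0.0493), with both P0 libraries above both E17 libraries. This call was lost in 9 of the 10 fits that left out a library, and the value was 0.30 without P0 replicate 1 and 0.77 without replicate 2. Sdhb, the iron-sulphur subunit, stayed between 77.7 and 88.2 CPM in the 10 libraries. Sdhc, the other anchor, lay between 164 and 228 CPM and was not called.

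Complex III, the cytochrome bc1 complex, had 0 of 8 genes called in each of the 5 comparisons. The core proteins Uqcrc1 and Uqcrc2 were at 143 ± 9.40 and 59.5 ± 1.64 CPM at E12.5 and at 143 ± 6.45 and 62.7 ± 6.87 at P0. The Rieske iron-sulphur protein Uqcrfs1 was at 97.0 ± 3.15 and 107 ± 13.6. The median of the complex from E12.5 to P0 was 0.070. Cyc1, the nuclear-encoded cytochrome c1 that the symbol rule leaves out, differed by 3.4e-05 on the log2 scale in that comparison (SE 0.16).

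Complex IV, cytochrome c oxidase, had 14 genes tested, and Cox6b2 was the only one called in any comparison. Cox6b2, the form of subunit 6B known from testis, lies at chromosome 7, 4751792 to 4753094. It was at 27.7 and 33.1 CPM (E12.5), 31.3 and 24.3 (E14), 6.75 and 2.83 (E15.5), 5.81 and 5.71 (E17), and 7.29 and 6.94 (P0). The 4 early libraries lay far above the 6 later ones. Between E14 and E15.5 it fell by 2.60 on the log2 scale (SE 0.32, limma-voom adjusted p = 0.000557), to 0.165 of its E14 level, and it was down by 2.10 from E12.5 to P0 (SE 0.31, limma-voom adjusted p = 0.000514). For E14 to E15.5, leaving out the first or the second E15.5 library gave -3.27 or -2.02, both called. The E12.5 to P0 value was -2.12 without P0 replicate 1 and -2.02 without replicate 2.

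These levels rest on 503, 884, 709 and 766 footprints in the early libraries and on 224, 67, 183, 152, 67 and 291 in the later ones. Cox6b2 was at 30.4 ± 3.81 CPM at E12.5 and 27.8 ± 4.98 at E14, stages at which the choroid plexus markers summed to 344 and 284 and to 1154 and 1160 CPM, and these markers also fell to 14.5 CPM or less from E15.5 on. Their part in the fall of Cox6b2 was not tested. The sperm lineage markers summed to at most 0.265 CPM. Cox6b1, the ubiquitous form, was at 571 ± 26.8 CPM (E12.5), 590 ± 29.4 (E14), 558 ± 9.91 (E15.5), 608 ± 42.9 (E17) and 689 ± 34.7 (P0) and was not called.

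The other complex IV subunits were not called. Cox4i1, the main form of subunit 4, was at 491 ± 49.2 CPM (E12.5), 577 ± 1.87 (E15.5) and 481 ± 70.7 (P0). Cox5a had 205 ± 7.46 and 217 ± 19.3 CPM at E12.5 and P0, and Cox5b 145 ± 1.98 and 175 ± 8.70. From E12.5 to P0, the limma-voom adjusted p was 0.0221 for Cox5b (0.28 on the log2 scale), 0.0215 for Cox7a2 (0.28) and 0.035 for Cox6b1 (0.27), all 3 under the fold threshold. Cox6a1 and Cox8a show how far the P0 libraries differ. Cox6a1 was at 262 CPM in replicate 1 and 121 in replicate 2, against 123 to 149 in the embryonic libraries, and Cox8a was at 326 and 171, against 132 to 200. Their log2 fold changes from E12.5 to P0 were 0.47 (SE 0.29, limma-voom adjusted p = 0.177) and 0.64 (SE 0.26, adjusted p = 0.0629).

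Complex V, the ATP synthase, held the OXPHOS gene with the largest called rise. Atp5g1, one of 3 genes for the c subunit of the rotating ring, lies at chromosome 11, 96072793 to 96075694. It was at 358 and 436 CPM (E12.5), 423 and 403 (E14), 461 and 446 (E15.5), 527 and 499 (E17), and 937 and 610 (P0). E12.5 and E14 overlapped, and from E14 on each stage lay above the one before. It rose by 0.95 on the log2 scale from E12.5 to P0 (SE 0.19, limma-voom adjusted p = 0.00237), and by 0.63 without P0 replicate 1 and 1.28 without replicate 2. No single step was called.

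Atp5g2 went the other way. It was at 323 and 340 CPM (E12.5), 311 and 326 (E14), 271 and 254 (E15.5), 220 and 210 (E17), and 282 and 216 (P0). It fell by 0.43 from E12.5 to P0 (SE 0.13, limma-voom adjusted p = 0.0175), a call that was lost without P0 replicate 2 (-0.20, adjusted p = 0.076), while without replicate 1 the value was -0.62. Atp5g3 stayed between 606 and 761 CPM and was not called. The mature c subunit of the 3 genes is the same and their import sequences differ, so footprints from the shared part could have been split among them, and it is not stated whether the counts used here come from the isoform estimates that the study's methods describe.

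Atp5a1, the alpha subunit of the catalytic head, was at 634 and 644 CPM (E12.5), 584 and 560 (E14), 572 and 533 (E15.5) and 466 and 498 (E17), and stood at 702 and 691 (P0). Both P0 libraries were above the 8 embryonic ones. It rose by 0.53 from E17 to P0 (SE 0.087, limma-voom adjusted p = 0.00564), and by 0.52 and 0.57 without P0 replicates 1 and 2. Without E17 replicate 1 the value was 0.48 and the adjusted p 0.0673. Its annotated span overlaps Haus1. Atp5b, the catalytic beta subunit, was at 284 and 290 CPM at E17 and 359 and 337 at P0 and was not called, and Atp5c1, the central stalk, stayed between 310 and 382 CPM.

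Atp5j2, the membrane subunit f, was at 792 and 656 CPM at E14 and 546 and 530 at E15.5. It fell by 0.42 in that step (SE 0.13, limma-voom adjusted p = 0.0376), a call lost in 7 of the 10 fits that left out a library. Atp5h, the peripheral stalk subunit d, fell by 0.44 from E12.5 (1017 and 959 CPM) to P0 (643 and 834), with an SE of 0.12 and a limma-voom adjusted p of 0.0145. Without P0 replicate 1 the value was -0.24, under the fold threshold, and without replicate 2 it was -0.59.

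**Figure D3:**
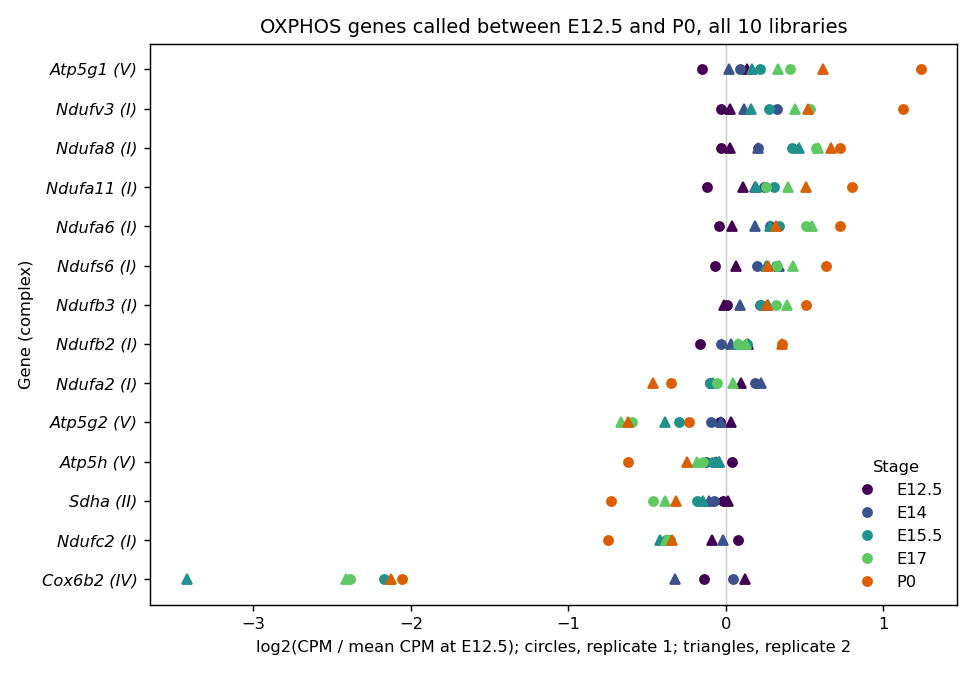
The 14 OXPHOS genes called between E12.5 and P0, each with its CPM in all 10 libraries as log2 of the ratio to its E12.5 mean; colours are stages, and circles and triangles replicates 1 and 2. Cox6b2 splits into 4 early and 6 later libraries, Ndufa8 moves up stage by stage, and for Atp5g1 and Ndufv3 P0 replicate 1 lies far from replicate 2.

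Paralogue pairs were compared as the log2 CPM difference within each library, which does not depend on how libraries are scaled. The 4 early libraries (E12.5 and E14) were set against the 4 late ones (E17 and P0) by a two-sided exact permutation test, whose smallest possible p is 0.0286. After adjustment over the 7 pairs tested the smallest p reached was 0.0667, so no pair passed 0.05. A pair with complete separation cannot pass 0.05 on its own after this adjustment. Not passing is therefore not read as a result about a pair. Shares of a pair are shares of footprint counts, not corrected for coding length, and compare libraries rather than the levels of the paralogues.

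Cox6b2 made up 4.77%, 5.31%, 5.22% and 3.82% of the Cox6b1 and Cox6b2 footprints in the early libraries, 1.18% and 0.511% at E15.5, and between 0.902% and 1.03% at E17 and P0. The log2 difference to Cox6b1 moved by -2.33 on the log2 scale from the early to the late libraries (early -4.33 ± 0.23, late -6.66 ± 0.087, mean ± SD, n = 4 each, exact permutation p = 0.0286, adjusted p = 0.0667), and the groups did not overlap. Without any one library the difference lay between -2.44 and -2.27.

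The ratio of Cox7a2l to Cox7a2 also separated the groups. Cox7a2l encodes a relative of subunit 7A known for its part in joining complexes III and IV, and Cox7a2 the common form of the subunit. Cox7a2l took between 25.3% and 31.4% of the pair in the early libraries, 25.0% and 24.7% at E15.5, and between 19.0% and 23.8% late. The difference was -0.54 on the log2 scale (exact permutation p = 0.0286, adjusted p = 0.0667). Cox7a2 was at 227 ± 4.03 CPM at E12.5 and 274 ± 3.65 at P0, and Cox7a2l at 90.2 ± 17.5 and 71.5 ± 10.7, and neither gene was called.

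Atp5g1 took 33.2%, 37.3%, 41.1% and 39.0% of the Atp5g1 and Atp5g3 footprints in the early libraries, 39.9% and 39.8% at E15.5, 45.1% and 43.1% at E17, and 60.7% and 44.5% at P0. Its ratio to Atp5g3 was higher late by 0.64 (exact permutation p = 0.0286, adjusted p = 0.0667), and by 0.40 without P0 replicate 1. The ratio of Atp5g2 to Atp5g3 differed by -0.49 (exact permutation p = 0.0857, adjusted p = 0.15). P0 replicate 1, at 31.8% Atp5g2, fell among the early libraries (31.0% to 34.1%), while the other late libraries were between 22.1% and 25.5%.

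**Figure D4:**
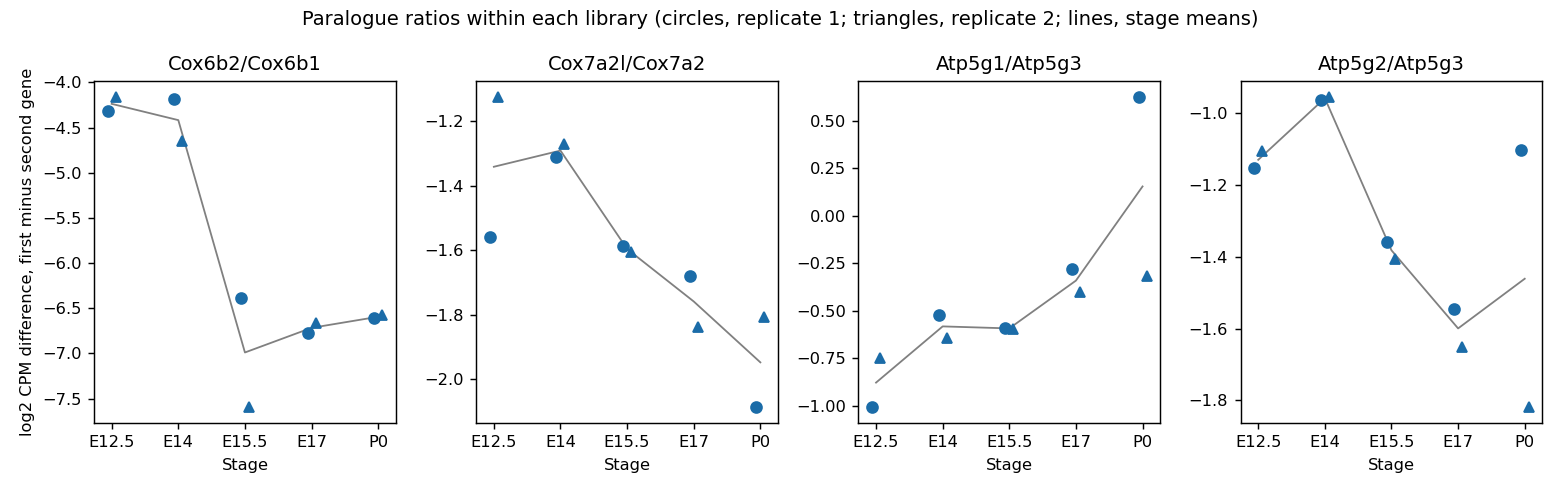
log2 CPM difference between paralogues within each library at the 5 stages, with circles and triangles for replicates 1 and 2 and lines joining stage means. Cox6b2/Cox6b1 drops after E14, Cox7a2l/Cox7a2 is lower in each late library than in each early one, Atp5g1/Atp5g3 is higher in each, and for Atp5g2/Atp5g3 P0 replicate 1 lies among the early libraries.

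The tissue-typical forms of the other pairs took small shares of the footprints. Cox4i2, the lung and hypoxia form of subunit 4, made up between 0.245% and 0.619% of its pair with Cox4i1 and differed by -0.18 between late and early (exact permutation p = 0.6, adjusted p = 0.70). Ndufa4l2, a hypoxia-inducible relative of Ndufa4, took between 0.116% and 0.291% of its pair and differed by -0.12 (exact permutation p = 0.743, adjusted p = 0.743). Cox7a1, the heart and muscle form of subunit 7A, had between 0 and 35 footprints per library and differed from Cox7a2 by -1.42 (exact permutation p = 0.371, adjusted p = 0.52), with a spread from -0.33 to -2.15 when single libraries were left out.

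Cox6a2, the heart and muscle form of subunit 6A, was found mainly at P0. It had 3 footprints in E14 replicate 2 and 5 in E17 replicate 2, 0 in the other 6 embryonic libraries, and 8 and 23 at P0. Its CPM at P0 was 16.2 times the embryonic level (95% interval 7.30 to 40.9, which covers counting error only). This contrast was not among the planned ones and sets the stage with most footprints against the rest, so the interval is not read as a test. At P0 Cox6a2 was still only 0.331% and 0.451% of its pair with Cox6a1. The striated muscle markers summed to 184 and 232 CPM at P0 and 166 to 183 before, of which Acta1 alone was 149 to 215 CPM. Myh7, a myosin heavy chain of slow and cardiac muscle, was at 0.761 and 0.644 CPM at P0 and at most 0.413 before. It had 1 footprint in each E12.5 library and 7 and 27 at P0. Because it passed the 32-footprint minimum only through P0, its fold change is not given. Myh3, the embryonic form, was at 0.761 and 0.406 CPM at P0 and at most 0.191 before. Other markers of the list did not follow. Mylpf went from 2.64 and 1.76 CPM (E12.5) to 0.761 and 0.501 (P0). Tnnt3 was at 2.73 and 1.54 CPM at E17 and at 0.109 and 2.51 at P0. Calls among the 5 muscle markers tested are not counted either, because Myh7 is 1 of them. The part of muscle in the Cox6a2 footprints was not tested. The span of Cox6a2 overlaps Itgad. Cox7b2 and Cox8c, testis forms, had 3 footprints each in all, in E15.5 replicate 2 and P0 replicate 2, and Cox8b, a muscle form, had 0 footprints in all 10 libraries.

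Other genes of the pathway were counted in lists. The 13 mitochondrially encoded subunits, which are translated inside the organelle, are listed at 0 in every library, so the table does not measure them. Of 45 assembly factors, which build the complexes without staying in them, 13 were higher and 8 lower from E12.5 to P0 (median 0.19), against the 30.1% and 32% of all genes given above. Coa7 (1.04, SE 0.13) and Ecsit (0.96, SE 0.11), assembly factors of complexes IV and I, were among the higher, and Nubpl (-1.50, SE 0.16), which delivers iron-sulphur clusters to complex I, was lowest. Without P0 replicates 1 and 2, Coa7 was at 0.94 and 1.21, Ecsit at 0.92 and 1.06, and Nubpl at -1.55 and -1.28, and the counts were 14 higher and 8 lower, and 15 higher and 12 lower. From E17 to P0, 4 were higher and 5 lower, against 9.46% and 11.1% of all genes, and without P0 replicate 2 these were 8 and 8. With total counts the calls were 27 higher and 2 lower from E12.5 to P0, and 7 higher and 3 lower from E17 to P0.

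Of 17 genes of pyruvate dehydrogenase and the tricarboxylic acid cycle, which feed the chain with NADH and succinate, 7 were higher and 1 lower from E17 to P0, where 9.46% and 11.1% of all genes were called. Their median log2 fold change was 0.36, beside 0.046 for the OXPHOS genes. Pdha1, the alpha subunit of pyruvate dehydrogenase, rose by 0.65 (SE 0.089, limma-voom adjusted p = 0.00316), Idh3a, of the NAD-dependent isocitrate dehydrogenase, by 0.63 (SE 0.13), Ogdh, of the oxoglutarate dehydrogenase complex, by 0.60 (SE 0.11), and Cs, citrate synthase, by 0.42 (SE 0.082, adjusted p = 0.0108). Fh1 (0.55), Mdh2 (0.41) and Dlst (0.36) also rose. Without P0 replicate 1, Mdh2 (0.27) and Dlst (0.32) fell under the fold threshold. The counts were 7 higher and 1 lower without P0 replicate 1, and 9 higher and 1 lower without replicate 2. The lower gene was Idh2, the NADP-dependent enzyme (-0.56, adjusted p = 0.0413), whose call was lost without P0 replicate 2 (-0.29). From E12.5 to P0, 5 of the 17 were higher and 2 lower, against 30.1% and 32% of all genes. These counts were 4 and 2 without P0 replicate 1, 5 and 4 without replicate 2, and 13 and 2 with total counts. Suclg2, a GTP-forming succinyl-CoA ligase subunit, fell by 2.43 (SE 0.14), and was at -2.30 and -2.67 without P0 replicates 1 and 2.

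Of 12 regulators of mitochondrial genes, 2 were higher and 6 lower from E12.5 to P0, against 30.1% and 32% of all genes. Among the 12, Ppargc1b reached the 32-footprint minimum only at P0 (7 and 25 footprints). The number called higher is therefore not read as a result. The coactivator Ppargc1a rose by 1.73 (SE 0.33, limma-voom adjusted p = 0.00199), of which 1.23 (SE 0.29) came between E17 and P0, and without P0 replicate 2 that last value was 0.61 and not called (adjusted p = 0.119). Gabpa and Gabpb1, the subunits of GABP, fell by 1.32 (SE 0.19) and 1.22 (SE 0.14), Nrf1 by 0.56 (SE 0.14) and Tfam, which packages and transcribes mitochondrial DNA, by 0.91 (SE 0.28). With total counts Nrf1 (-0.031) and Tfam (-0.38) were not called and the list gave 5 higher and 3 lower. Without P0 replicate 1 Tfam was at -0.44, Gabpa at -1.03, Gabpb1 at -1.03 and Nrf1 at -0.67, and without replicate 2 they were at -1.47, -1.74, -1.41 and -0.39. The list then gave 2 higher and 7 lower, and 1 higher and 5 lower, of the 11 genes that passed the filter.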

How the data were processed

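Ribo-seq was carried out on 10 pooled neocortex libraries, 2 at each of 5 stages, grouped by the stage in the labels. Per the study's methods, lysates were clarified and digested with RNases T1 and A without cycloheximide, monosome footprints were sequenced, duplicates were collapsed by molecular identifiers, and reads were aligned (STAR 2.7.0 in the submitters' processing notes), with multimapping reads kept. The authors deposited whole-number footprint counts per gene, not scaled for depth. The methods also describe isoform abundances from DeepShape-prime, summed to gene counts corrected for length by tximport. Whether the deposited counts are that output is not stated, so genes with near-identical copies or overlaps are uncertain. Of 22373 identifiers, 22274 matched a symbol.

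Genes with at least 32 footprints over the 2 libraries of a stage (13484) were fitted by limma-voom (R 4.3.3, limma 3.58.1, edgeR 4.0.16 for TMM), with 1 coefficient per stage, and two-sided p-values were adjusted over all of them by the Benjamini-Hochberg method. The call rule stands in the report. DESeq2 1.42.0 and edgeR tests, other scalings, no filter, a replicate block and leaving out each library were alternatives. log2 CPM used a prior count of 0.5. Replicates are pools, so p-values measure the spread between pools. The code was tested on simulated data.

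The symbol rule and the lists were chosen with earlier results of these data known. Named were all genes of isoform pairs, the core subunits, and the 3 largest rises and falls called per comparison with a mean of at least 100 counts. Values of 1 gene under this rule are not reported here. Ndufa11, Ndufa6, Ndufs6, Ndufb3, Ndufb2, Atp5h, Cox6a1, Cox8a, Atp5o and Uqcr11 and the genes of the other lists were chosen after their values were seen, except where a pair holds them. Levels per coding length were not computed, because coding lengths were not used here, so shares of a paralogue pair compare libraries, not the levels of its genes. Promoters and gene spans come from RefSeq (GRCm38.p6), the build on which the study's stated annotation rests. The table itself names no build.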

Additional observations from a re-analysis of the deposited data

How the results depend on the processing

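With total counts in place of TMM, OXPHOS calls from E14 to E15.5 were 20 higher and 1 lower (median log2 fold change 0.24), from E17 to P0 11 and 0 (median 0.16), and from E12.5 to P0 59 and 1 (median 0.60), and their E15.5 to E17 median was 0.12. This scaling moved the median of all genes alike, and Ndufa2 (0.12), Sdha (0.040), Atp5g2 (0.097) and Atp5h (0.094) changed sign from E12.5 to P0. The E15.5 to E17 median (0.053) was 0.071 with DESeq2 size factors, 0.044 without a filter, 0.063 in edgeR and 0.080 in DESeq2, and the cause was not tested. OXPHOS genes higher from E17 to P0 were 1 in edgeR, 5 in DESeq2 and 1 with the replicate block, in place of 2, and DESeq2 called 13 higher from E12.5 to P0, in place of 8.

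Leaving out single libraries gave 0 to 0 calls in either direction from E12.5 to E14 and from E15.5 to E17 and 0 to 0 higher from E14 to E15.5, 1 to 6 lower from E14 to E15.5, 0 to 19 higher and 0 to 7 lower from E17 to P0, and 4 to 19 higher and 4 to 13 lower from E12.5 to P0. The medians lay between -0.0100 and 0.042, -0.066 and 0.010, 0.046 and 0.076, 0.042 and 0.12, and 0.066 and 0.11 in the 5 comparisons in order. Pair differences lay between -0.36 and 0.028 (Cox4i2, reversed without P0 replicate 1), -2.44 and -2.27 (Cox6b2), -2.15 and -0.33 (Cox7a1), -0.62 and -0.46 (Cox7a2l), -0.32 and 0.087 (Ndufa4l2, 0.070 without E14 replicate 1 and 0.087 without P0 replicate 2), 0.40 and 0.74 (Atp5g1), and -0.63 and -0.39 (Atp5g2). For Ndufa4l2, P0 alone against E12.5 alone gave 0.17. Cox6b2 in both comparisons, Atp5g1, Ndufv3, Ndufa8 and Ndufa11 stayed called in all 10 of these fits. Other calls lost are given beside their genes, except Ndufb7 (3 of 10 fits), Ndufa2 from E17 to P0 (5), Ndufa6 (without E12.5 replicate 1), and Ndufb3, Ndufc2, Ndufs6, Sdha, Atp5g2, Atp5h and Ndufa2 from E12.5 to P0, each also lost without an E12.5 library.

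The deviations of same-numbered libraries over 4559 genes correlated at 0.21 to 0.43 in 5 of the 10 pairs of stages, all among the stages from E14 to P0, and at -0.63 to -0.044 in the other 5, of which 4 involve E12.5. Not every pair was positive, so the numbers were not taken to pair samples. With the replicate block, the adjusted p of Atp5j2 (E14 to E15.5) was 0.0557 and that of Sdhd (E17 to P0) 0.0624, and neither was called. Without a filter these were 0.0647 and 0.0744, and edgeR gave 0.0503 for Sdhd. The alternative on levels per coding length was not run. Calls in the other pathway lists under total counts, DESeq2 size factors and without each P0 library were chosen after seeing the data. P0 replicate 1, the shallowest library, limits what the P0 comparisons resolve.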
